A study of Rattus norvegicus with 19 samples.

Results

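The comparison described here set the renal cortex of 7 diabetic rats fed enarodustat (DKD+enarodustat) against that of 7 diabetic rats on normal feed (DKD). Its members were all DKD and DKD+enarodustat arrays of the series, 14 of 19 in all; the other 5 arrays came from Sham rats and entered the fit for the spread and for values given side by side. All animals were male Crl:CD (SD) rats. The Sham rats received vehicle and normal feed. Diabetes was induced by intravenous injection of streptozotocin (65 mg/kg), which destroys pancreatic beta cells, 7 days before grouping. Of 19 injected rats, 14 were used, divided so that blood glucose and body weight were alike in both groups. Enarodustat was mixed into the feed at 0.01% (w/w), and kidneys were taken 14 days after grouping. The question was what the drug changed in diabetic cortex, in particular in energy metabolism. Total RNA of each rat was labelled with Cy3 and hybridised to 1 single-colour Agilent array. The cortex is a mixture of cell types: in such bulk samples fewer cells of a type and less RNA per cell cannot be told apart. The design has 1 dose and 1 time point, and no Sham rats received the drug.

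Enarodustat inhibits the prolyl hydroxylases that use oxygen to mark hypoxia-inducible factor (HIF) for destruction. When these enzymes are blocked, HIF-alpha subunits persist, pair with ARNT and bind short DNA elements with the core ACGTG or GCGTG near their target genes. Targets known from many tissues include glucose transporters and glycolytic enzymes, lactate export, mitophagy receptors and kinases that switch off pyruvate dehydrogenase. Others are collagen-modifying enzymes, angiogenic factors, iron uptake genes and prolyl hydroxylases themselves. In kidney the proximal tubule mostly burns fatty acids rather than glucose, and erythropoietin comes from interstitial cells.

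Levels are log2 intensities relative to the 75th percentile of the same array, so that 0 marks that percentile. A difference is DKD+enarodustat minus DKD on the log2 scale with its standard error (SE, n = 7 and 7 in limma). Genes were called at an adjusted p under 0.05. Of 24206 genes tested, 914 were called (3.78%), 421 higher (1.74%) and 493 lower (2.04%) with enarodustat. With the replicate number as a block in place of slide, 334 were higher and 312 lower. The rises were larger than the falls: the median difference was 0.50 among genes called higher and -0.29 among genes called lower, and 55 of the former but 10 of the latter changed at least 2-fold. In 157 of the genes called higher and 110 of those called lower the 7 treated arrays did not overlap the 7 DKD arrays. Over all genes tested, 0.686% did not overlap in the higher and 0.566% in the lower direction. The split of calls into higher and lower moved with the settings. Of all calls 46.1% were higher, against 39.2% after normexp correction and quantile normalisation, 61.9% with no filter on dim probes and 62.8% once slide row was added to the fit.

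The place of an array on its slide was tied to group. All 7 DKD+enarodustat arrays lay in row 2 and all 5 Sham arrays in row 1, while DKD had 5 arrays in row 1 and replicates 2 and 4 in row 2. Between 63.2% and 70.2% of spots were well above background on DKD+enarodustat arrays, 65.9% and 63.5% on DKD replicates 2 and 4, and between 69.9% and 73.8% on the other DKD arrays. DKD replicates 2 and 4 also had the highest adipocyte markers. The summed level of the 10 measured adipocyte markers, 7 of which were above background on all 19 arrays, was 4.06 and 4.33 there, 2.18 to 2.78 on the other DKD arrays and 1.90 to 3.33 with enarodustat. Their summed erythroid markers (9 genes) were 6.70 and 7.00, against 4.31 to 5.83 on the other DKD arrays and 4.39 to 8.04 with enarodustat. Without these 2 arrays 898 genes were called (412 higher, 486 lower), and with row 2 arrays only, where they are the only DKD arrays, 19. A fit with slide and row has a row term that rests on the same 2 arrays, so row and the make-up of these samples cannot be told apart there. In that fit 155 genes (0.640%) were higher and 92 (0.380%) lower. Of the 421 genes called higher 111 were also called there, and of the 493 called lower 22; none of the 914 changed sign. All 12 proximal tubule markers and all 13 measured podocyte markers were above background on all 19 arrays.

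**Figure D1:**
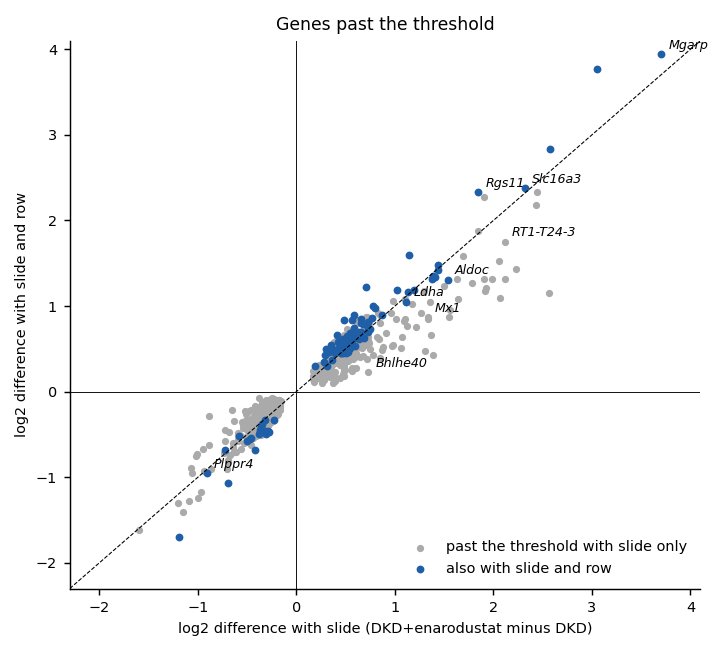
Log2 differences (DKD+enarodustat minus DKD) of the 914 genes past the threshold, from the fit with slide (x axis) and with slide and row (y axis), with a line of equal values. The 133 genes also past the threshold with slide and row are marked apart, and no gene changes sign between the fits.

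The promoters of Ldha, Aldoc, Bnip3 and Mgarp are printed because these 4 genes rose without overlap between the groups, as described below, and hold the core of the HIF element within 250 bases before the annotated start. Capitals mark each match to ACGTG or GCGTG on either strand (CACGT or CACGC on the strand shown). Overlapping matches, such as those inside CACGTG, which is also an E-box, were joined and counted as 1. Sequences are RefSeq, build GRCr8, read 5′ to 3′ toward the start.
Ldha, chr1:106507842-106508091, + strand: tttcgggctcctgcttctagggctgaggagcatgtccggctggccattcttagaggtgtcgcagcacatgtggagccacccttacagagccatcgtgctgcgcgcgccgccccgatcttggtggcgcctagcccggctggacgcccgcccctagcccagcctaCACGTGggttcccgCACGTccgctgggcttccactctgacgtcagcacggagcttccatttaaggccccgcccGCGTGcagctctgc
Aldoc, chr10:63715294-63715543, + strand: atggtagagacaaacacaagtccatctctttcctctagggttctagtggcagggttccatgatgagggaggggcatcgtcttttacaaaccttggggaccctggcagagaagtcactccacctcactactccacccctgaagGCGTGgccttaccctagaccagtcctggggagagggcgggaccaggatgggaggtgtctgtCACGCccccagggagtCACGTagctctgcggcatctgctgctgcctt
Bnip3, chr1:203154963-203155212, - strand: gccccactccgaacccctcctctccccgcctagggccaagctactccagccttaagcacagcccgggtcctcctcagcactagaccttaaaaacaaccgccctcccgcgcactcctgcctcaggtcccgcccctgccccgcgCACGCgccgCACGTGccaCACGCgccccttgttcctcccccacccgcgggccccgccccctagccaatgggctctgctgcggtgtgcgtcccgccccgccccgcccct
Mgarp, chr2:137590295-137590544, - strand: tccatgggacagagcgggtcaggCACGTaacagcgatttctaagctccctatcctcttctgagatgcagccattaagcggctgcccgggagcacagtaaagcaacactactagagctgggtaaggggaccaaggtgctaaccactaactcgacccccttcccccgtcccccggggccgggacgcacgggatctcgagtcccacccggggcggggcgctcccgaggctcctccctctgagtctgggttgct
The Ldha matches lay 87, 73 and 14 bases before the start, those of Aldoc 108, 47 and 31, those of Bnip3 108, 99 and 90 and that of Mgarp 227. Such short words are common: 36.7% of the 33469 promoters in the table had a match in the same window. Of 39 genes that rose in the 10 lists on HIF, glycolysis, lactate, pyruvate and glycogen, 35 had a promoter there, and 28 of their 40 promoters had a match (70%). Over all measured genes of these lists, called or not, 80 of 130 promoters had one (61.5%). Slc16a3, Egln3, Vegfa, Apln, Tpi1, Gpi, Pkm and Jmjd6 rose and had no match in this window. A match is a description of letters and was not tested as a binding site.

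Most measured enzymes of lower glycolysis rose. Of 12 measured enzymes of lower glycolysis, the steps from fructose bisphosphate to pyruvate, 8 rose and none fell, with a median difference of 0.48 against -0.02 over all genes tested. In the fit with slide and row 6 of the 12 rose, with a median of 0.55. The median was 0.46, 0.50 and 0.45 within slides 1, 2 and 3. Of 13 measured genes of glucose entry and upper glycolysis 4 rose and none fell, with a median of 0.22 that was 0.08 with slide and row, where 4 rose and Pfkfb1, an isoform of the enzyme that makes and breaks down the fructose bisphosphate that stimulates glycolysis, was lower (-2.15, adjusted p = 0.037). Of 7 genes of lactate formation and transport 4 rose and 1 fell. With the replicate block, and with slide and row, 2 of these rose and none fell.

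Slc16a3 encodes MCT4, the transporter that exports lactate from glycolytic cells. Its level lay between -3.05 and -1.85 in DKD (median -2.46) and between -0.51 and 0.21 with enarodustat (median 0.01). All treated arrays lay above all DKD arrays, including replicates 2 and 4 at -2.71 and -1.85. The difference was 2.32 ± 0.17 (4.98-fold, adjusted p = 5.57e-07) and 2.38 ± 0.27 with slide and row (adjusted p = 0.000442). It was 2.78, 2.05 and 2.19 within slides 1, 2 and 3. Its probe lies on chromosome 10 from 110163119 to 110163178 in rn4, the build of the file headers.

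Ldha, the lactate dehydrogenase subunit that favours lactate formation, lay between 4.72 and 5.13 in DKD (median 5.02) and between 5.98 and 6.34 with enarodustat (median 6.13). The groups did not overlap, and DKD replicate 6 was the lowest DKD array. The difference was 1.12 ± 0.08 (2.17-fold, adjusted p = 5.57e-07) and 1.05 ± 0.13 with slide and row (adjusted p = 0.000944). Its 2 other probes gave 1.29 and 1.39. The probe used lies on chromosome 1 from 97412488 to 97412547 in rn4. Ldhb, the subunit that favours lactate use, fell by 0.21 ± 0.05 (adjusted p = 0.0403, and 0.464 with slide and row). Bsg, the chaperone of lactate transporters, rose by 0.34 ± 0.08 (adjusted p = 0.0209), which was 0.17 with slide and row (adjusted p = 0.532). Ldhd, a D-lactate dehydrogenase of mitochondria, rose by 0.35 ± 0.09 (adjusted p = 0.0334), which was 0.52 with slide and row (adjusted p = 0.0616). With the replicate block the adjusted p was 0.0831 for Ldhb, 0.053 for Bsg and 0.0741 for Ldhd. The other lactate carriers Slc16a1 and Slc16a7 differed by -0.08 and 0.0004 and were not called.

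Aldoc, the aldolase isoform typical of brain, lay between -3.03 and -2.19 in DKD (median -2.67) and between -1.45 and -0.80 with enarodustat (median -1.18). All treated arrays were higher, with DKD replicate 4 the nearest DKD array. The difference was 1.54 ± 0.11 (2.9-fold, adjusted p = 3.76e-07), and 1.31 ± 0.15 with slide and row (adjusted p = 0.00065). The Aldoc probe is on chromosome 10 from 64308833 to 64308892 in rn4. Aldoa, the muscle-type isoform, rose by 0.58 ± 0.06 (adjusted p = 4.55e-05). At some other steps 1 isoform was called and others were not. Eno1, the general enolase, rose by 0.59 ± 0.06 (adjusted p = 4.55e-05), while Eno2 and Eno3 differed by 0.30 and 0.09. Pkm, the pyruvate kinase of most tissues, rose by 0.54 ± 0.06 (adjusted p = 8.36e-05), while Pklr, that of liver and red cells, differed by -0.03. Whether isoforms of 1 step differed from each other in their response was not tested.

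Of the remaining enzymes of lower glycolysis, Tpi1, triose phosphate isomerase, rose by 0.45 ± 0.05 (adjusted p = 4.55e-05). Its arrays did not overlap, at 1.46 to 1.72 in DKD and 1.91 to 2.17 with enarodustat. Pgk1, Pgam1 and Gapdh, the kinase, the mutase and the dehydrogenase of the pathway, rose by 0.51, 0.56 and 0.42. With slide and row Pgk1 was called (adjusted p = 0.00865), whereas Pgam1 and Gapdh were not (adjusted p = 0.0686 and 0.126). Gapdh is often used to normalise other genes; its level was 4.61 to 5.08 in DKD and 5.15 to 5.39 with enarodustat, without overlap (adjusted p = 0.00213).

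In upper glycolysis the liver-type phosphofructokinase Pfkl, an enzyme of the committing step, lay between -2.42 and -1.82 in DKD and between -1.35 and -0.83 with enarodustat. The groups did not overlap, and the difference was 1.02 ± 0.10 (adjusted p = 3.65e-05; 1.18 ± 0.15 with slide and row, adjusted p = 0.00149). Its platelet-type counterpart Pfkp rose by 0.68 ± 0.08 (adjusted p = 0.000212), whereas the muscle type, Pfkm, differed by -0.18. Gpi, glucose-6-phosphate isomerase, lay between 2.48 and 2.84 in DKD and between 3.21 and 3.76 with enarodustat. It rose by 0.80 ± 0.07 without overlap (adjusted p = 5.54e-06; 0.98 ± 0.09 with slide and row). Slc2a1, the GLUT1 glucose transporter, lay between -0.74 and 0.06 in DKD (median -0.23) and between 0.26 and 0.76 with enarodustat (median 0.40). All treated arrays were higher, by 0.77 ± 0.10 (1.71-fold, adjusted p = 0.000348), and by 0.86 ± 0.16 with slide and row (adjusted p = 0.0171). The hexokinases Hk1 and Hk2 differed by 0.22 and 0.15 and were not called. Pfkfb3, a regulator of phosphofructokinase, differed by 0.39 but by -0.49 with slide and row, called in neither. Its relative Pfkfb1 differed by -0.39, and by -2.15 with slide and row, where it was called.

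**Figure D2:**
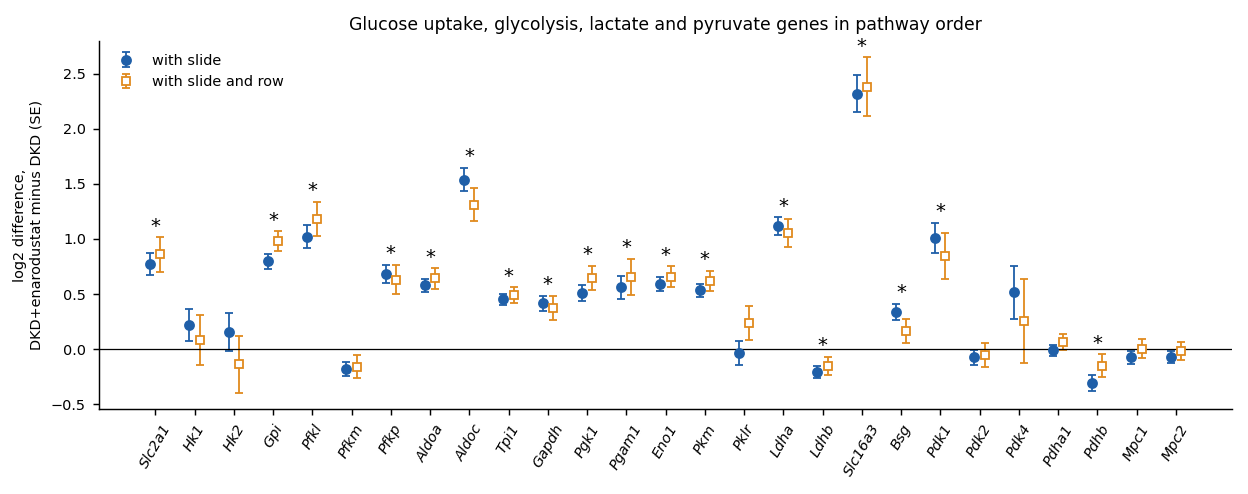
Log2 differences (DKD+enarodustat minus DKD, bars are SE) for genes from glucose uptake to pyruvate entry in pathway order, from the fit with slide (filled circles) and with slide and row (open squares). Asterisks mark genes past the threshold in the fit with slide, whether or not they passed it with slide and row. With slide, Slc16a3 is highest at 2.32, and Aldoc, Ldha, Pfkl and Pdk1 lie above 1.

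Among genes of pyruvate entry and pyruvate dehydrogenase, an inhibitory kinase rose, and 2 subunits and a phosphatase of the dehydrogenase fell slightly. Of 14 genes 1 rose and 3 fell, and none was called with slide and row. Pdk1, a kinase that switches off pyruvate dehydrogenase, lay between -2.44 and -1.78 in DKD (median -2.13) and between -1.63 and -0.80 with enarodustat (median -1.004). The arrays did not overlap, and the difference was 1.01 ± 0.13 (2.01-fold, adjusted p = 0.000388). With slide and row it was 0.84 ± 0.21 (adjusted p = 0.0698). Its other probes gave 0.85 to 0.97. Pdk4, the starvation-responsive kinase, differed by 0.52 ± 0.24 (adjusted p = 0.268), with groups that overlapped. The subunits Pdhb and Dld fell by 0.31 ± 0.07 (adjusted p = 0.0282) and 0.28 ± 0.07 (adjusted p = 0.0294). Pdp2, a phosphatase that reactivates the complex, fell by 0.39 ± 0.10 (adjusted p = 0.041, and 0.0555 with the replicate block). With slide and row these 3 differences were -0.15, -0.15 and -0.28. The pyruvate carriers Mpc1 and Mpc2 each differed by -0.07 and were not called.

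Genes of the tricarboxylic acid cycle and of oxidative phosphorylation moved little. For comparison, 2.04% of all genes tested were called lower. Of 21 cycle genes 2 fell and none rose, with a median of -0.14; 20 of the 21 differences were negative. The members that fell were Idh3a, a subunit of isocitrate dehydrogenase, by 0.31 ± 0.06 (adjusted p = 0.00471), and Suclg2, of succinyl-CoA ligase, by 0.22 ± 0.05 (adjusted p = 0.0275, and 0.053 with the replicate block). With slide and row neither was called, and the median was -0.07; after normexp and quantile normalisation 8 fell. Of 66 respiratory chain and ATP synthase genes 4 fell and none rose, with a median of -0.04. Uqcrc2, a core subunit of complex III, lay between 2.73 and 3.02 in DKD and between 2.52 and 2.72 with enarodustat. The groups did not overlap, and it fell by 0.31 ± 0.05 (adjusted p = 0.00103; 0.197 with slide and row). Ndufa4, Atp5pb and Ndufs4, of complexes IV, V and I, fell by 0.21, 0.25 and 0.32. None of the 4 was called with slide and row, and 10 of the 66 fell after normexp and quantile normalisation. With the replicate block the adjusted p was 0.0809 for Atp5pb and 0.0717 for Ndufs4.

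Mitochondrial proteins known as HIF targets included Mgarp, a dim gene that rose without overlap between the groups. Of 11 measured, 5 rose and none fell, with a median of 0.28 (3 and 0.25 with slide and row). Mgarp, a mitochondrial protein linked to hypoxia and to organelle transport, lay between -8.11 and -6.43 in DKD (median -7.15) and between -4.24 and -2.86 with enarodustat (median -3.37). Since 3 of 7 DKD arrays, 4 of 5 Sham and 7 of 7 treated arrays were well above background, the size of the difference is uncertain and no fold is given. It was 3.70 ± 0.17 (adjusted p = 8.62e-09; 3.94 ± 0.26 with slide and row, adjusted p = 5.57e-06). After normexp and quantile normalisation the difference was 1.23. Its probe lies on chromosome 2 from 140282421 to 140282480 in rn4. Bnip3, a mitophagy receptor, lay between 3.10 and 3.33 in DKD and between 3.66 and 4.08 with enarodustat. Without overlap it rose by 0.66 ± 0.06 (1.58-fold, adjusted p = 1.98e-05; 0.70 ± 0.10 with slide and row, adjusted p = 0.00327). In rn4 the Bnip3 probe spans chromosome 1 from 198683030 to 198683089. Its relative Bnip3l rose by 0.28 ± 0.04 (adjusted p = 0.00187; 0.111 with slide and row). Fam162a, a hypoxia-induced mitochondrial protein, rose by 0.45 ± 0.06 (adjusted p = 0.000304; 0.00902 with slide and row). Higd1a, which associates with the respiratory chain, rose by 0.49 ± 0.07 (adjusted p = 0.00101; 0.179 with slide and row). Ndufa4l2, the hypoxic counterpart of Ndufa4, differed by 0.38 ± 0.22 (adjusted p = 0.38).

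**Figure D3:**
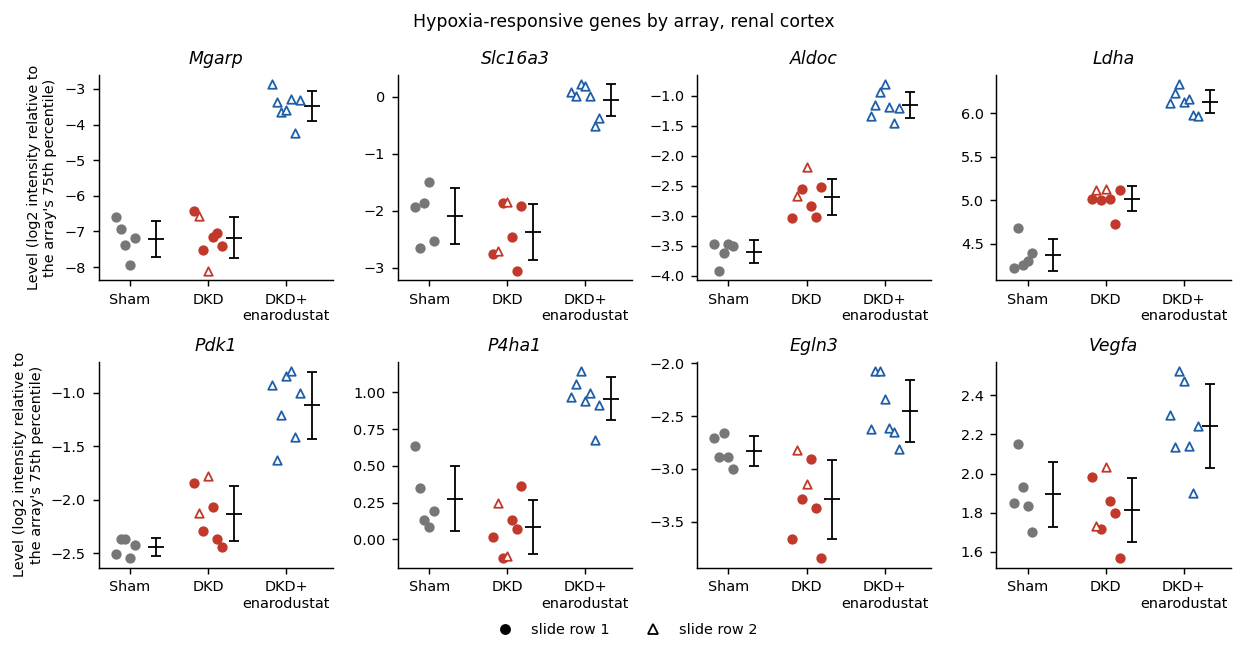
Level of 8 hypoxia-responsive genes on each array (log2 intensity relative to the array's 75th percentile), by group, with mean and SD; each panel has its own axis. Circles are arrays in slide row 1 and triangles those in row 2. The treated arrays lie above all DKD arrays in each panel except that of Vegfa, where they overlap.

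Of 12 oxygen-sensing genes 2 rose and none fell, and both encode prolyl hydroxylases, the enzymes that enarodustat inhibits. Egln3, the hydroxylase PHD3, lay between -3.85 and -2.82 in DKD (median -3.28) and between -2.81 and -2.07 with enarodustat (median -2.61). The groups did not overlap but nearly met, at DKD replicate 2. The difference was 0.84 ± 0.15 (adjusted p = 0.00364), but 0.61 ± 0.22 with slide and row (adjusted p = 0.232). The Egln3 probe is on chromosome 6 from 74451958 to 74452017 in rn4. Egln1, PHD2, rose by 0.39 ± 0.06 (adjusted p = 0.00122), and the difference was 0.49 ± 0.09 with slide and row (adjusted p = 0.0193). Egln2, PHD1, differed by -0.10. Hif1a differed by -0.24 ± 0.07 (adjusted p = 0.0636) and Epas1, which encodes HIF-2 alpha, by 0.16 ± 0.07 (adjusted p = 0.213). The call for Hif1a depended on the processing. Values deposited by the authors placed it lower (-0.19, adjusted p = 0.0397), as did normexp correction with quantile normalisation (-0.23, adjusted p = 0.0453). It was not called with slide and row (-0.30, adjusted p = 0.225) or with the replicate block (adjusted p = 0.122). The arrays measure mRNA and give no value for the HIF proteins.

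Of 11 collagen modifiers 2 rose and none fell. P4ha1, a catalytic subunit of collagen prolyl 4-hydroxylase, lay between -0.13 and 0.37 in DKD and between 0.68 and 1.14 with enarodustat. All treated arrays were higher, by 0.87 ± 0.09 (adjusted p = 4.55e-05; 0.90 ± 0.14 with slide and row, adjusted p = 0.00696). Plod1, a lysyl hydroxylase, lay between -1.18 and -0.83 in DKD and between -0.55 and -0.19 with enarodustat. It rose by 0.59 ± 0.06 without overlap (adjusted p = 2.09e-05; 0.53 ± 0.09 with slide and row, adjusted p = 0.00776). None of 34 extracellular matrix and TGF-beta genes was called, with a median of -0.06.

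Angiogenic and vasoactive genes changed at 3 of 17 members, all higher, and none of these was called with slide and row. Vegfa, the main vascular growth factor, lay between 1.57 and 2.04 in DKD (median 1.80) and between 1.90 and 2.52 with enarodustat (median 2.24). The lowest treated array lay within the DKD range. It rose by 0.43 ± 0.09 (1.35-fold, adjusted p = 0.00933), and the difference was 0.45 ± 0.14 with slide and row (adjusted p = 0.144). Its other probes gave 0.25 to 0.65, and the probe used lies on chromosome 9 from 10535933 to 10535992 in rn4. Apln, which encodes the vasoactive peptide apelin, rose by 1.18 ± 0.24 (adjusted p = 0.0106; 1.03 ± 0.38 with slide and row, adjusted p = 0.245). Tek, the endothelial angiopoietin receptor, rose by 0.32 ± 0.08 (adjusted p = 0.033; 0.31 with slide and row, adjusted p = 0.308). Adm, adrenomedullin, differed by 0.23 ± 0.10 (adjusted p = 0.245). Tek was also the 1 call among 17 endothelial markers, whose median was 0.13. Epo, the erythropoietin gene, could not be followed: its probe was above background on 1 of 7 DKD arrays and on no treated or Sham array, so the filter left it out.

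Of 27 other HIF targets 7 rose and none fell; 4 rose with slide and row, 4 with the replicate block and 4 without DKD replicates 2 and 4. Tfrc, the transferrin receptor, lay between -1.32 and 0.11 in DKD (median -0.55) and between -0.45 and 1.42 with enarodustat (median 0.77). The groups overlapped, and it rose by 1.15 ± 0.23 (2.21-fold, adjusted p = 0.00851; 1.59 ± 0.33 with slide and row, adjusted p = 0.0326). Slc11a2, the iron transporter DMT1, lay between 0.82 and 1.52 in DKD and between 1.63 and 2.28 with enarodustat. Without overlap it rose by 0.64 ± 0.08 (adjusted p = 0.000365; 0.70 ± 0.13 with slide and row, adjusted p = 0.0199). Kdm4b and Jmjd6, oxygen-dependent dioxygenases of the nucleus, rose by 0.28 ± 0.06 (adjusted p = 0.0122) and 0.34 ± 0.07 (adjusted p = 0.00976), neither called with slide and row. Bhlhe40, a transcriptional repressor that also acts on the clock, rose by 0.73 ± 0.19 (adjusted p = 0.039), but the difference was 0.23 ± 0.25 with slide and row. Ddit4, an inhibitor of mTORC1, rose by 0.71 ± 0.18, which was 1.23 with slide and row, and Ero1a, an oxidase of the endoplasmic reticulum, rose by 0.45 ± 0.11. With the replicate block the adjusted p was 0.0638 for Bhlhe40, 0.103 for Ddit4 and 0.0612 for Ero1a. Ankrd37 differed by 0.31 ± 0.09 (adjusted p = 0.079), and by 0.56 with slide and row (adjusted p = 0.0371). Well-known targets such as Car9, Kdm3a and Ndrg1 differed by -0.03, 0.03 and -0.36, with no call.

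Of 23 iron handling genes 3 rose and 1 fell. Beside Tfrc and Slc11a2, the exporter Slc40a1, ferroportin, rose by 0.48 ± 0.12 (adjusted p = 0.0308; 0.27 with slide and row, adjusted p = 0.529). Fech, which inserts iron into heme, lay between -0.001 and 0.17 in DKD and between -0.47 and -0.06 with enarodustat. The groups did not overlap, and it fell by 0.35 ± 0.06 (adjusted p = 0.00534; 0.0794 with slide and row). The 9 erythroid markers, 8 of them above background on all arrays, had a median difference of 0.45 but -0.24 with slide and row, and none was called. Treated replicate 4 had the highest erythroid sum of all arrays; the part of these cells in the iron results was not tested.

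Glycogen and sugar phosphate metabolism rose at 3 of 20 genes, or at 2 without Ppp1r3c, whose probes disagree. With slide and row 2 rose, and Gyg1, a glycogenin that primes glycogen, was lower (-0.40, adjusted p = 0.0213). Gys1, the general glycogen synthase, lay between -0.27 and 0.20 in DKD and between 0.46 and 0.66 with enarodustat. All treated arrays were higher, by 0.57 ± 0.07 (adjusted p = 0.00015; 0.55 ± 0.11 with slide and row, adjusted p = 0.0244). Pygl, liver glycogen phosphorylase, rose by 0.35 ± 0.09 (adjusted p = 0.0308; 0.55 with slide and row, adjusted p = 0.0425, and adjusted p = 0.0683 with the replicate block). Ppp1r3c, which targets a phosphatase to glycogen, rose by 0.67 ± 0.11 (adjusted p = 0.00243), but its other probe gave -0.45, so its direction is uncertain. No gene was called among the 15 of gluconeogenesis, fructose and polyols and the 12 of other glucose transporters and glucose-responsive regulators. Among them Pck1, the gluconeogenic carboxykinase, differed by -0.14 ± 0.16. Slc5a2, the SGLT2 transporter, differed by -0.04 ± 0.13 and Slc2a2, GLUT2, by -0.16 ± 0.12, both with the other sign in the fit with slide and row. The glucose-responsive Txnip differed by 0.12 ± 0.08.

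Fat metabolism showed few calls, where 3.78% of all genes tested were called. None of 37 fatty acid oxidation and PPAR-alpha genes was called with slide, with a median of -0.04. In the fit with slide and row 1 of the 37 was lower, with a median of -0.11, and 2 were lower in the authors' deposited value table. Cpt1a, the gatekeeper of mitochondrial fatty acid import, differed by -0.21 ± 0.18 (adjusted p = 0.564). Of 21 lipogenesis genes 1 fell, with a median of -0.21. It was Fads2, the delta-6 desaturase, at -3.13 to -2.71 in DKD and -3.69 to -3.30 with enarodustat. Without overlap it fell by 0.58 ± 0.06 (adjusted p = 7.92e-05; a difference of -0.52 ± 0.10 with slide and row, adjusted p = 0.0213). In the fit with slide and row 2 of the 21 lipogenesis genes were lower, Fads2 among them. The Fads2 probe is on chromosome 1 from 212514714 to 212514773 in rn4. None of 20 cholesterol synthesis genes was called. Apoc3, an inhibitor of lipoprotein lipase, was among the largest rises by the rule, at 2.00 to 2.37 in DKD and 2.82 to 3.92 with enarodustat. It rose by 1.14 ± 0.16 without overlap (adjusted p = 0.000711; 1.16 ± 0.26 with slide and row), and its other probe gave 1.13.

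Few amino acid and ketone genes were called with slide, all of them lower, where 3.78% of all genes tested were called (2.04% lower). Counts this small do not set these lists apart. Of 21 genes of branched-chain amino acid breakdown 2 fell, and 19 of 21 differences were negative. Acad8, a dehydrogenase of the valine route, fell by 0.32 ± 0.06 (adjusted p = 0.00624), and Mmut, the cobalamin-dependent mutase, fell by 0.30 ± 0.07 (adjusted p = 0.0204). The median was -0.15, or -0.05 with slide and row, where neither gene was called, and it was -0.0086 within slide 1. After normexp and quantile normalisation 5 of the 21 fell, and 5 fell in the authors' deposited value table. Of 10 ketone body genes 1 fell, Acat1, the mitochondrial thiolase, by 0.28 ± 0.07 (adjusted p = 0.0348; 0.394 with slide and row, where Aacs, a cytosolic acetoacetate-activating enzyme, was lower instead at -0.73, adjusted p = 0.00908). Of 26 one-carbon, creatine and arginine genes 1 fell, Mat2b, a subunit of methionine adenosyltransferase, by 0.23 ± 0.06 (adjusted p = 0.0315; 0.335 with slide and row). The median of these 26 was -0.10, or 0.04 with slide and row. None of 16 ammonia and bicarbonate genes was called, while 12 of the 16 differences were negative, with a median of -0.15. After normexp and quantile normalisation 2 of the 16 fell, and 4 fell in the authors' deposited value table.

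**Figure D4:**
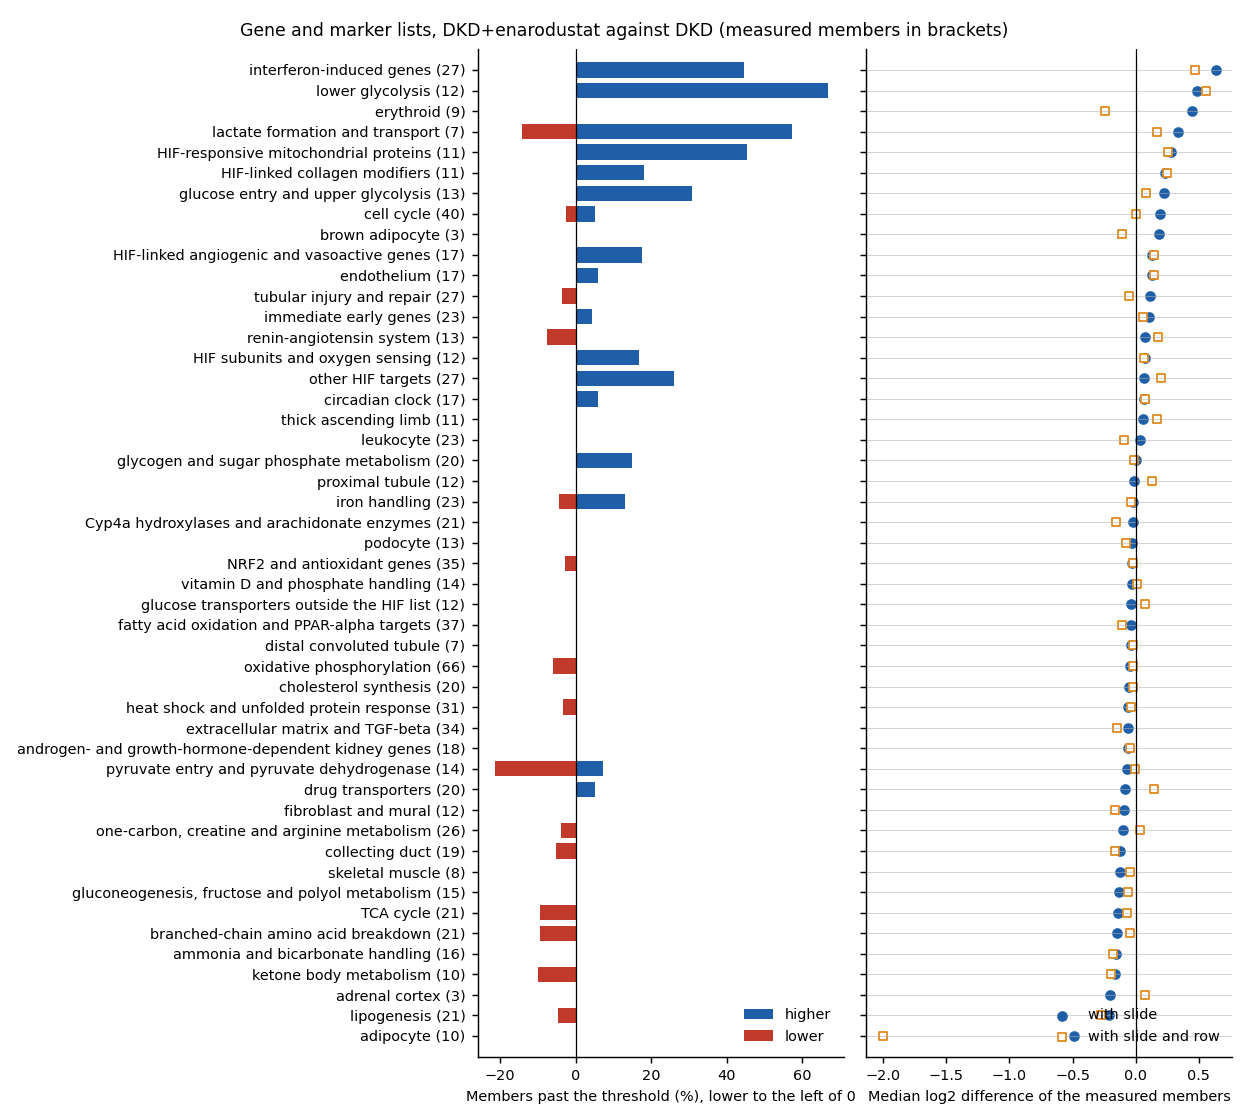
Share of measured members past the threshold (left, higher and lower, in %) and median log2 difference of the measured members (right) for each role and marker list, with slide and with slide and row. Lower glycolysis has 8 of 12 members higher, and the median of the adipocyte markers moves from -0.49 with slide to -2.0 with slide and row.

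Interferon-induced genes, the antiviral programme that interferon turns on, had the highest median of the 35 role lists in the fit with slide, but not with slide and row or within slide 2, where that of lower glycolysis was higher. The rise was uneven between animals. Of 27 measured 12 rose and none fell, with a median of 0.63. Once row was added 1 rose, with a median of 0.47, and with the replicate block 3 rose. The median was 0.56, 0.38 and 0.97 within slides 1, 2 and 3. The median level of the list relative to the DKD mean was 1.095, 1.20, 1.21 and 0.72 in treated replicates 1, 3, 6 and 7. In treated replicates 2, 4 and 5 it was 0.19, 0.17 and 0.32, within the DKD range of -0.53 to 0.44. Leaving out 1 array at a time changed the count to between 4 and 15. It was 4 without DKD replicate 3 or 7 or treated replicate 3 or 7, 5 without DKD replicate 6, 7 without replicate 1 of either group and 8 without treated replicate 6. In a fit on the 14 diabetic arrays alone it was 2. The 23 leukocyte markers, 18 of them above background on all arrays, had a median difference of 0.03 with none called. Their summed level was 5.20 to 5.88 in DKD and 5.44 to 6.46 with enarodustat, highest in treated replicate 6; their part in the result was not tested.

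Irf7, the regulator that amplifies interferon production, lay between -2.29 and -0.68 in DKD (median -1.80) and between -1.25 and 2.09 with enarodustat (median 1.20). The groups overlapped, and it rose by 2.23 ± 0.47 (4.69-fold, adjusted p = 0.0125; 1.43 ± 0.70 with slide and row, adjusted p = 0.398). Its probe lies on chromosome 1 from 201456889 to 201456948 in rn4. Oasl2, of the antiviral OAS family, rose by 1.26 ± 0.27 (adjusted p = 0.0148; 0.36 with slide and row). Mx1, an antiviral GTPase, rose by 1.33 ± 0.30 (adjusted p = 0.0198; 0.433 with slide and row and 0.0541 with the replicate block). Its paralog Mx2 was the 1 member whose groups did not overlap, at 3.94 to 4.17 in DKD and 4.22 to 4.58 with enarodustat. It rose by 0.33 ± 0.05 (adjusted p = 0.00208; 0.46 ± 0.08 with slide and row, adjusted p = 0.00776), and its other probe gave 0.63. The other 8 members that rose did so by 0.44 (Ifih1) to 2.12 (Usp18). RT1-T24-3, a class I histocompatibility gene outside the list, lay between -0.74 and 0.56 in DKD and between 0.71 and 2.92 with enarodustat. Without overlap it rose by 2.11 ± 0.32 (adjusted p = 0.000984; 1.75 ± 0.50 with slide and row, adjusted p = 0.111). Its other probe gave 0.10, and genes of this family share sequence, so the value is uncertain.

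**Figure D5:**
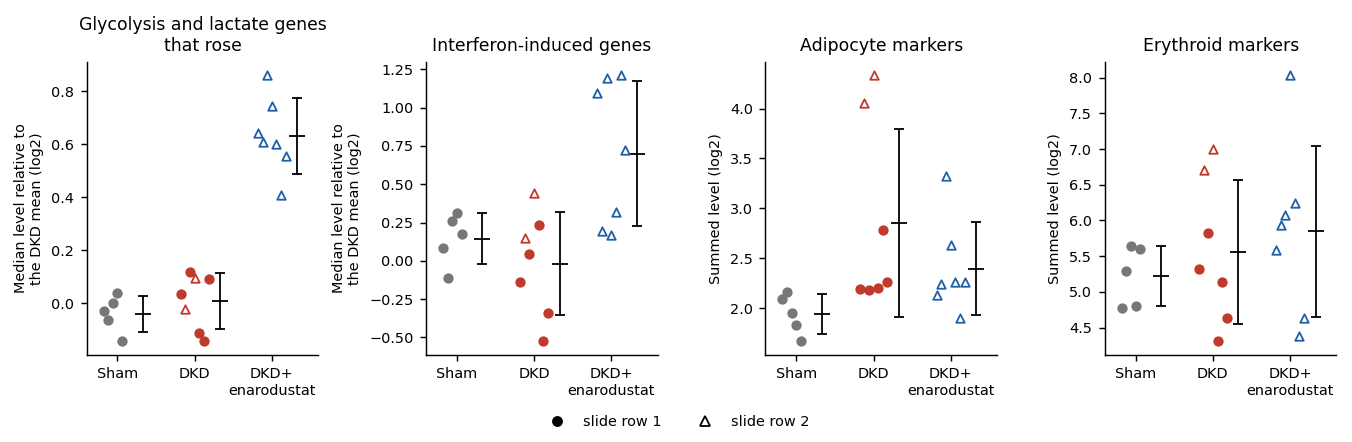
Per-array values by group: the median level of the glycolysis and lactate genes that rose and of the interferon-induced genes, relative to the DKD mean (log2), and the summed level of adipocyte and of erythroid markers (log2), with mean and SD. The glycolysis genes were chosen for their rise, so that panel describes spread only. Treated replicates 1, 3, 6 and 7 lie above all DKD arrays for interferon genes, and DKD replicates 2 and 4 have the highest adipocyte values.

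Injury genes showed 1 call. Of 27 genes of tubular injury and repair none rose and 1 fell, where 3.78% of all genes tested were called. Of the 27 differences 22 were positive and 5 negative, from -0.37 to 1.07, with a median of 0.11 (-0.05 with slide and row). Krt8, a keratin that rises in injured tubules, fell by 0.37 ± 0.09 (adjusted p = 0.0281; 0.406 with slide and row and 0.0683 with the replicate block). Havcr1, the proximal tubule injury marker KIM-1, ranged from -3.97 to -0.11 in DKD and from -3.80 to 0.15 with enarodustat. The difference was 0.10 ± 0.62 (adjusted p = 0.953), and -1.21 ± 0.89 with slide and row. Lcn2, which encodes NGAL, differed by 0.37 ± 0.43 and by -0.81 ± 0.57 with slide and row. In both genes the differences were smaller than the range within a group. Of 35 NRF2 and antioxidant genes 1 fell, Txnrd1, thioredoxin reductase, by 0.53 ± 0.10 (adjusted p = 0.00542; 0.0854 with slide and row), while its other probe gave -0.18.

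Few other kidney genes were called, but 3.78% of all genes tested were, so counts this small do not set these lists apart. Of 20 measured drug transporter genes 1 rose, and none was called with slide and row or with the replicate block. Slc26a4, the pendrin exchanger of intercalated cells, fell by 0.59 ± 0.13 (adjusted p = 0.0164; 0.314 with slide and row and 0.0523 with the replicate block), the 1 call among 19 collecting duct markers. Atp6ap2, the prorenin receptor, fell by 0.32 ± 0.07 (adjusted p = 0.0171; 0.398 with slide and row), the 1 call among 13 renin-angiotensin genes. No marker of proximal tubule (12), thick ascending limb (11), distal convoluted tubule (7), podocytes (13) or fibroblasts and mural cells (12) was called, with medians from -0.09 to 0.06. The 14 vitamin D and phosphate genes, the 21 Cyp4a and arachidonate genes and the 18 androgen- and growth-hormone-dependent genes had no call either. Over all genes tested, 4470 had an unadjusted p under 0.05 in the same limma fit. Adipocyte (10), brown adipocyte (3), skeletal muscle (8) and adrenal cortex (3) markers were not called with slide. In the fit with slide and row 1 adipocyte and 1 adrenal cortex marker were lower.

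Calls were few among regulators of growth and stress, where 3.78% of all genes tested were called. Counts this small do not set these lists apart. Of 40 cell cycle genes 2 rose and 1 fell. Mki67, a proliferation marker, rose by 0.65 ± 0.17 (adjusted p = 0.0414) and E2f1, a transcription factor of the cycle, rose by 0.39 ± 0.09 (adjusted p = 0.0223). Tyms, thymidylate synthase, fell by 0.34 ± 0.09 (adjusted p = 0.046; 0.0524 with the replicate block). The list's median was 0.19 but 0.01 with slide and row, where no member was called, and without DKD replicates 2 and 4 12 members rose. Btg2, an antiproliferative immediate early gene, rose by 0.68 ± 0.10 (adjusted p = 0.001; 0.11 with slide and row) with arrays that did not overlap, the 1 call among 23 such genes. Pdia3, a disulfide isomerase, fell by 0.22 ± 0.05 (adjusted p = 0.0277; 0.0854 with slide and row and 0.0739 with the replicate block), the 1 call among 31 heat shock and unfolded protein genes. Of these 31 genes 4 fell and 1 rose after normexp and quantile normalisation, and 4 fell in the authors' deposited value table. Bhlhe40, above, was the 1 call among 17 clock genes.

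Outside the lists, Rgs11, a regulator of G-protein signalling, was among the largest rises by the rule, at -7.39 to -5.79 in DKD and -4.99 to -4.06 with enarodustat. The difference was 1.85 ± 0.19 (adjusted p = 4.44e-05; 2.33 ± 0.26 with slide and row, adjusted p = 0.000404). This gene was dim, and after normexp and quantile normalisation the difference was 0.54. Tmem252, a membrane protein, rose by 1.102 ± 0.19 without overlap (adjusted p = 0.0033; 0.85 with slide and row, adjusted p = 0.214).

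The largest falls by the rule were smaller than the largest rises. Plppr4, a phospholipid phosphatase-related protein best known from neurons, lay between -5.30 and -4.64 in DKD and between -6.43 and -5.71 with enarodustat. All treated arrays were lower, with a difference of -0.91 ± 0.11 (adjusted p = 0.000162; -0.95 ± 0.17 with slide and row, adjusted p = 0.0171). After normexp and quantile normalisation it was -0.26. Pde4dip, an anchor of phosphodiesterase at the Golgi and centrosome, fell by 0.89 ± 0.14 (adjusted p = 0.00153; 0.193 with slide and row). Pip5k1b, a kinase that makes phosphatidylinositol bisphosphate, fell by 0.68 ± 0.12 (adjusted p = 0.00347; 0.0795 with slide and row), with a difference of -0.23 after normexp and quantile normalisation. Gtf3c3, a subunit of the RNA polymerase III factor TFIIIC, fell by 0.50 ± 0.07 (adjusted p = 0.000747; 0.0247 with slide and row), with -0.16 after that normalisation. Akirin1, a nuclear protein, and Fam98a fell by 0.46 ± 0.06 and 0.48 ± 0.07, at adjusted p = 0.0124 and 0.0214 with slide and row. Fastkd5, of mitochondrial RNA processing, and Dmtn, which binds actin, fell by 0.45 and 0.45, and Tmem209, of the nuclear envelope, fell by 0.43; none was called with slide and row. Nhlrc1, the ubiquitin ligase malin of glycogen regulation, fell by 0.42 ± 0.11 (adjusted p = 0.0368; 0.393 with slide and row and 0.0652 with the replicate block). Ccnc, cyclin C, fell by 0.42 ± 0.07, but its other probe gave 0.0029.

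The differences between DKD and Sham are given beside those of the drug for some genes; both use the same DKD arrays, so the values are not independent, and no relation between them was computed. In this fit 22.5% of genes differed between DKD and Sham, and 32.9% between DKD+enarodustat and Sham; Sham and treated arrays lay in different slide rows. Ldha, Aldoc and Bnip3 were higher in DKD than in Sham, by 0.67, 0.94 and 0.45, and 1.79, 2.48 and 1.11 higher than Sham with enarodustat. Mgarp, Slc16a3 and P4ha1 differed by 0.05, -0.20 and -0.19 between DKD and Sham, with no call, and were 3.76, 2.11 and 0.68 higher than Sham with enarodustat. Eno1 differed by -0.55 ± 0.07 between DKD and Sham (adjusted p = 4.52e-05) and by 0.04 between DKD+enarodustat and Sham (adjusted p = 0.695). For Slc11a2 these differences were -0.64 (adjusted p = 0.000165) and -0.01 (adjusted p = 0.97), for Higd1a -0.46 and 0.02, and for Pde4dip 0.91 and 0.02. Fads2 differed by -0.38 between DKD and Sham and by -0.96 between DKD+enarodustat and Sham. Havcr1, Pdk4, Txnip, Slc2a2 and Pck1 were 4.90, 2.80, 1.37, 1.31 and 1.19 higher in DKD than in Sham, and 5.01, 3.32, 1.49, 1.15 and 1.05 higher than Sham with enarodustat. Pdk4 was well above background on 1 of 5 Sham arrays, so the sizes of its differences from Sham are uncertain. Of the 37 genes of fatty acid oxidation, 26 were higher and 1 lower in DKD than in Sham. A p that misses the threshold does not show that a level returned to that of Sham.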

How the data were processed

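Each of 19 single-colour arrays held the renal cortex RNA of 1 rat, so replicates are separate animals. Per the file headers, the authors' scanner files were made with Agilent Feature Extraction 11.5.1.1 and hold background-subtracted processed intensity, with flags per spot (well above background, saturated, outlier, control), and probe positions in rn4. The number of arrays limits the precision. Of 62976 spots per array, 58717 were no controls (45598 probes). The log2 of processed intensity minus each array's 75th percentile was taken, outlier spots were left out (36 kept probe values missing) and spots of a probe averaged (2319 probes). Probes well above background on at least 5 of 19 arrays were kept (30259), and 1 probe stood for each of 24206 genes. Probes were named by accession (21109), another probe (1977), symbol (4887), older symbol (297) or the name in the file (17328), through RefSeq's rat table, GRCr8. No list member was saturated.

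Differences were fitted in limma 3.58.1 (R 4.3.3) on all 19 arrays with group and slide (3 slides, 1 scan day), 14 residual degrees of freedom, moderated two-sided tests and Benjamini-Hochberg adjustment over all genes at 0.05. The script was tested on simulated data. Alternatives changed the slide, row or replicate block, the arrays, normalisation, filter and probe rule. The replicate numbers of the labels lie within slides; the deviations of same-numbered DKD and DKD+enarodustat arrays correlated at 0.142 to 0.419, above 0.1 in each of 7 pairs, which met the criterion for giving the replicate block beside results. Nothing in the labels ties same-numbered rats to each other, the correlations were -0.252 to -0.0754 once slide was removed, and 1 of 7 treated arrays correlated best with its own number. The authors' deposited value table (22739 probes) holds log2 values, judged by their correlation of 0.982 to 0.988 with log2 processed intensity; column medians were 8.13 to 8.21, and its normalisation and centring are not given in the sources used here.

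The members and lists were chosen with earlier results of these data known, so no list count is independent evidence. Named genes (89) were the 12 largest rises and the 12 largest falls among called genes whose groups did not overlap, leaving out names that are only identifiers. They also include up to 4 called members with the smallest adjusted p per list (35 role and 13 marker lists), a set of known HIF and diabetes genes, and the 6 of these genes that moved most once row was added. Other list members were named to complete a list, after their values were seen. All were given as counts and medians with no set test. A few members of the lists are counted but not reported here by name.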

Additional observations from a re-analysis of the deposited data

Results flagged for a closer look

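Of 180 groups of 7 values checked (the named genes and the share of spots above background, in DKD and DKD+enarodustat), 6 held an array far from the other 6; chance gives about 1 in 20. The gap between that array and its nearest neighbour exceeded 0.568 of the group's range in each. Ldha, lactate dehydrogenase A, was 4.72 in DKD replicate 6, with the next array at 5.01. Plppr4 was -4.64 in DKD replicate 5, the highest of its group, with the next at -5.20. Krt8, the keratin of injured tubules, was -0.18 in DKD replicate 2, with the next at 0.07. Fastkd5 was -3.50 in DKD replicate 3, with the next at -3.63. Ankrd37 was 1.01 in DKD+enarodustat replicate 3, with the next at 0.69, and Kdm4b was -0.50 in DKD+enarodustat replicate 4, with the next at -0.68.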

How the results depend on the processing

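Of the 77 named genes that were called, 28 were also called with slide and row, 62 with the replicate block in place of slide, 66 without DKD replicates 2 and 4, 75 after normexp and quantile normalisation and 72 of 73 in the authors' deposited value table; none changed sign in any alternative. Calls over all genes were 914 (421 higher, 493 lower). They were 486 (260, 226) with no slide term, 247 (155, 92) with slide and row, 19 (15, 4) with row 2 arrays only, 534 (309, 225) with only the 14 diabetic arrays and 570 (353, 217) with no filter. Genes called lower numbered 312 with the replicate block and 831 in the authors' deposited value table. Within slide 1 there was 1 call (1 higher, 0 lower), and within slides 2 and 3 limma called 0, where 1879 and 2619 genes had an unadjusted p under 0.05 (1712 in slide 1). Leaving out 1 array gave 578 to 900 calls, 322 to 415 higher and 254 to 494 lower; the lower calls were 256, 254 and 324 without DKD replicates 3, 6 and 7 and 308 and 305 without treated replicates 2 and 7, and the total was 578 and 581 without DKD replicates 3 and 6.

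Upper glycolysis (4 higher), lower glycolysis (8), HIF-responsive mitochondrial proteins (5) and interferon-induced genes (12) had 1, 1, 1 and 0 members higher with row 2 arrays only and 0 each within slides 1, 2 and 3. With slide and row, 3 mitochondrial proteins and 1 interferon gene were higher and 1 upper glycolysis gene was lower. Among mitochondrial proteins 1 was lower without the DKD arrays of row 2, after normexp and quantile or quantile normalisation, and in the authors' deposited value table. Interferon counts were 3 with the replicate block, 2 with the 14 diabetic arrays, 7 with no filter and 4 to 15 leaving out 1 array.

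Some of the named genes that were not called changed sign in at least 1 alternative. Havcr1 was -1.21 with slide and row, -1.58 with row 2 arrays only, -1.13 and -0.68 within slides 1 and 2, and -0.33 to 0.54 leaving out 1 array. Lcn2 was -0.81, -1.05, -0.25 and -0.57 in the same 4 settings. Slc2a2 was 0.034 with slide and row, 0.054 with row 2 arrays only and 0.13 within slide 2. Slc5a2 was 0.19, 0.13 and 0.047 in the same settings, 0.017 within slide 3 and -0.12 to 0.069 leaving out 1 array. Adm was -0.033 within slide 1, and Cpt1a and Pck1 were 0.034 and 0.061 within slide 3. The causes were not tested. Row 2 alone and single slides hold 2 or 3 DKD arrays, and dim genes such as Mgarp, Rgs11 and Plppr4 are limited by signal over background.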
